A study of Mus musculus with 24 samples.

Results

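A set of 10 genes of glucose uptake and glycolysis was followed in RNA-seq of mouse aorta: Slc2a1, Hk1, Hk2, Pfkl, Pfkm, Aldoa, Pgk1, Eno1, Pkm and Ldha. They were chosen by name, without a threshold on measured values, and all of them were found among 21959 genes of the deposited count table, in 11 rows because Aldoa has 2 gene identifiers. The 24 libraries fall into 4 groups. Of these, 6 came from knock-in males labelled ATAD3A-KI given β-aminopropionitrile (KI-BAPN), 5 from ATAD3A-KI males on regular water (KI), 7 from WT males given the compound (WT-BAPN) and 6 from WT males on regular water (WT). β-Aminopropionitrile (BAPN) blocks lysyl oxidase, the enzyme that cross-links collagen and elastin, and is used to provoke aortic aneurysm and dissection. It was given at 0.5% (w/v) in drinking water for 28 days from 3 weeks of age, and controls drank plain water over the same time. ATAD3A is a protein of the mitochondrial inner membrane. The sources used here do not give the strain, the design of the knock-in allele or the cells in which it is active.

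Glycolysis splits glucose into pyruvate in the cytosol and yields ATP without oxygen. Glucose enters through transporters such as GLUT1, is phosphorylated by hexokinase, committed to the pathway by phosphofructokinase, cleaved by aldolase and carried to pyruvate by enzymes that include phosphoglycerate kinase, enolase and pyruvate kinase, and lactate dehydrogenase turns pyruvate into lactate. The transcription factor HIF-1, which accumulates when oxygen is low, is a well-known inducer of most of these genes. Vascular smooth muscle is known for making much lactate even with oxygen present.

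Because the members share this known inducer, their promoters were searched for its core motif, ACGTG or GCGTG on either strand, in RefSeq windows of 250 bases before to 50 bases after each start (build GRCm38.p6). All 10 symbols had a window, and 16 of their 20 windows held at least 1 match, against 43.8% of 32851 windows of all genes. Some windows of Pfkm, Aldoa and Eno1 overlap and hold the same match, so the 20 windows are not independent. A window with 2 or more matches was found for 20.6% of all windows. A palindromic CACGTG counts as 2 matches, 1 on each strand. The windows shown belong to Pfkl and Pfkm, the isozyme pair whose ratio differed most between groups, and to Pgk1 and Ldha, which both had Eno1 as the member nearest in profile. For each gene the window with the most matches is given, 5′ to 3′ on the gene's strand, with matches in capitals.
Pfkl (chr10:78009758-78010057, minus strand, 1 match): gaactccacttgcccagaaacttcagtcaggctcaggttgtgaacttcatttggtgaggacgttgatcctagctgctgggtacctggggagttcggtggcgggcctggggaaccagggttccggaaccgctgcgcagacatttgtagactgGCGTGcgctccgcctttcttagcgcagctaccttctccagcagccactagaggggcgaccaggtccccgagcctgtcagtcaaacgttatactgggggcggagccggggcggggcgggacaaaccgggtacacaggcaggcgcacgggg
Pfkm (chr15:98092339-98092638, plus strand, 3 matches): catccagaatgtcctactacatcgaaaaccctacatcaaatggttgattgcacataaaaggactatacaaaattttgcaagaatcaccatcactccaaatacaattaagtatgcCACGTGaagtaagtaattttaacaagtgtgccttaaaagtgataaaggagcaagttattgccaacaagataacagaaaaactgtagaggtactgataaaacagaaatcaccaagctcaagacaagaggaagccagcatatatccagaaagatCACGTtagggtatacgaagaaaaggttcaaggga
Pgk1 (chrX:106186850-106187149, plus strand, 2 matches): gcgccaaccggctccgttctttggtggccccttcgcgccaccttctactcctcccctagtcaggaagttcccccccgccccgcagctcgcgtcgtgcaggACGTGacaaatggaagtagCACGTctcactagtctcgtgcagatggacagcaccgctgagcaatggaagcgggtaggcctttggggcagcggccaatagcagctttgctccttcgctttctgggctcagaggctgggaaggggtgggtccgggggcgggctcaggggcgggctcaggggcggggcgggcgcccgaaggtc
Ldha (chr7:46845554-46845853, plus strand, 7 matches): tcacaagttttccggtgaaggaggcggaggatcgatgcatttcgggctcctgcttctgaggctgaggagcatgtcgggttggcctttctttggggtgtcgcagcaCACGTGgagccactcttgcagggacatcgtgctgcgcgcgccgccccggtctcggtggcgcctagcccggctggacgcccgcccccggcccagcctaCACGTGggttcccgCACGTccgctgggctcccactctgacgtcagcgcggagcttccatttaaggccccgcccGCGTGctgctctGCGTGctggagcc
The Ldha window holds CACGTG at 2 places, and that of Pfkl a single GCGTG. These matches describe letters in a window, and no binding was measured.

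Library totals ran from 13127645 to 26490651 counts, and the members together took 0.171% to 0.451% of a library. Atad3a, the gene named by the knock-in, was at 231 to 1038 CPM (counts scaled to the library's total, with TMM factors) in KI-BAPN and 618 to 1629 CPM in KI, against 24.9 to 44.8 CPM in WT-BAPN and 30.2 to 61.4 CPM in WT, so the genotypes separate by their labels. Markers of contractile smooth muscle were abundant throughout: the summed level of 8 genes ran from 10430 CPM to 56460 CPM over all libraries. Several libraries also had high levels of markers of other tissues. WT replicate 5 had 6537 CPM over 11 skeletal muscle markers, against a WT median of 15.2 CPM, and 19600 CPM over 8 airway markers. KI replicate 5 and KI-BAPN replicate 3 had 9138 and 8572 CPM over 8 adipocyte markers, and KI replicate 2 had 1927 CPM over 8 neuronal markers. WT-BAPN replicate 7 had 440 CPM over 10 proliferation markers, against a WT-BAPN median of 71.4 CPM. In whole tissue, fewer cells of a type and less RNA per cell cannot be told apart.

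The members covered a wide range of levels. Per kilobase of gene model, Aldoa was first at 263 CPM per kb on average over the 24 libraries, and it was above Pkm (118 CPM per kb) in 24 of 24. Ldha followed at 95.5 CPM per kb, then Eno1 at 63.4 and Pgk1 at 55.1 CPM per kb, whose order held in 17 of 24 libraries. Among the members, aldolase and the later enzymes stood above those of entry and commitment. Of the latter, Pfkm was at 28.8 CPM per kb, Slc2a1 at 14.5, Pfkl at 9.44, Hk2 at 9.40 and Hk1 at 6.22 CPM per kb. The level of Pfkl exceeded that of Hk2 in 13 of 24 libraries, so these neighbours were not separated. Genes outside the set did not keep this order in CPM, which is not divided by gene length. In WT, Pfkp, the platelet phosphofructokinase, averaged 267 CPM, above Pgk1 at 135 CPM. The later enzyme Pgam1 averaged 64.4 CPM there, below Pfkm at 89.5 CPM. The second Aldoa row (ENSMUSG00000114515) had 0.0393 to 1.27 CPM and is given by its values only. Reads of processed copies can be split or lost in counting, which makes levels uncertain for Aldoa, Pgk1, Eno1, Ldha and Gapdh, the glyceraldehyde-3-phosphate dehydrogenase gene. Gapdh had 42.0 to 197 CPM over all libraries. In the GRCm38 annotation Pfkm overlaps Senp1 and Aldoa overlaps Fam57b on the opposite strand, and reads of such partners cannot be told apart where counting ignores strand.

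**Figure D1:**
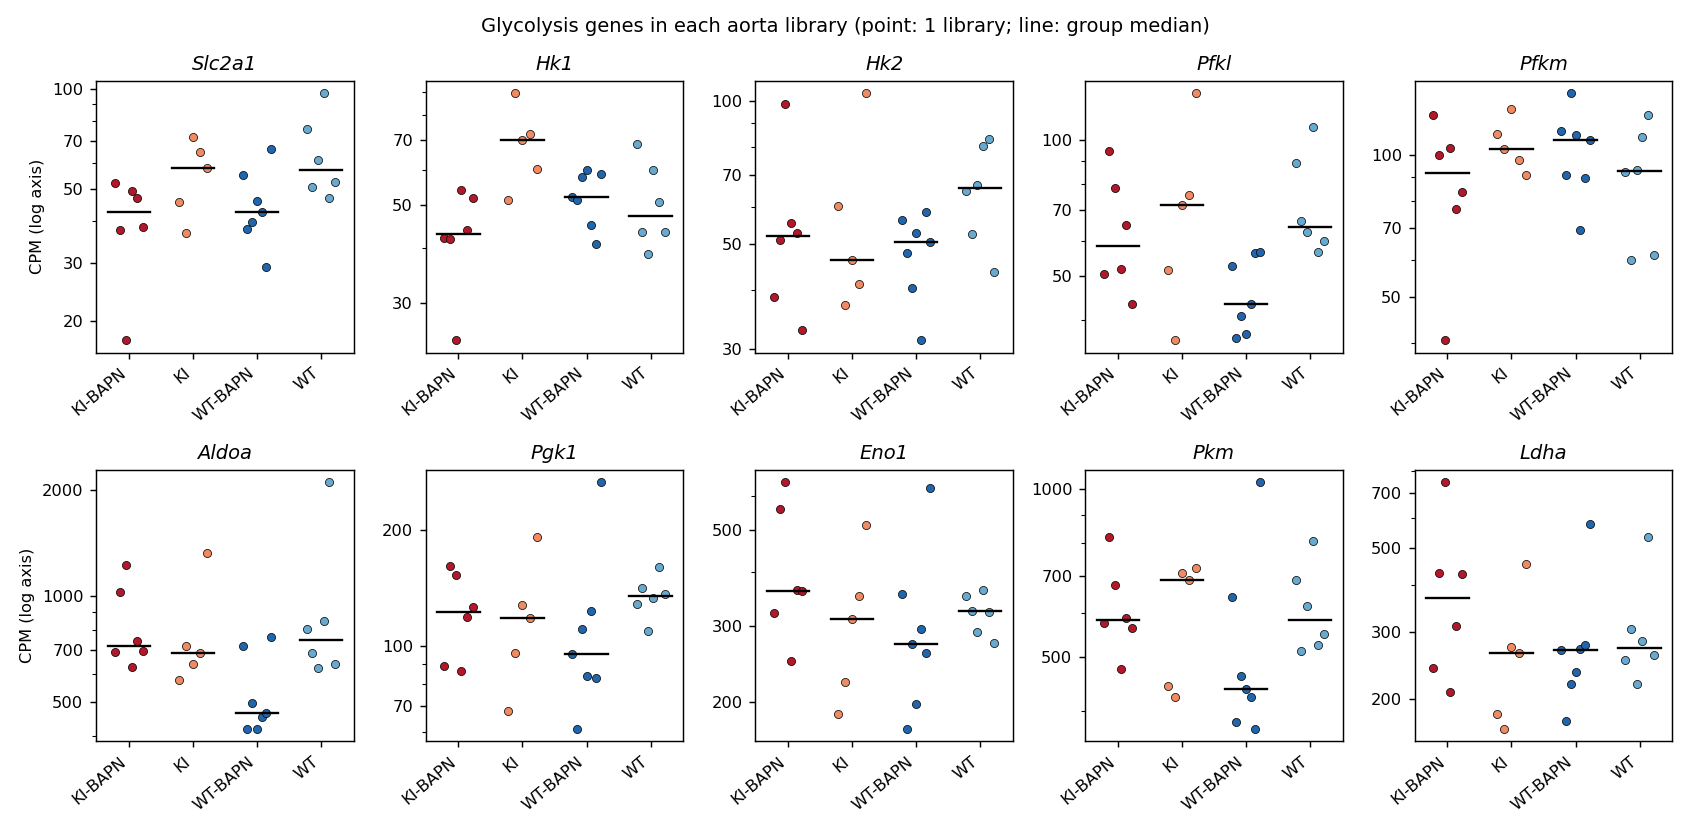
Each point is 1 library, with the level in CPM on a logarithmic axis and the 4 groups side by side; lines are group medians. All 7 WT-BAPN libraries lie below all 6 WT libraries for Pfkl, and single libraries stand far above their group for Aldoa (WT, 2103 CPM) and for Pgk1, Eno1, Pkm and Ldha (WT-BAPN, 265, 627, 1031 and 579 CPM).

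The effect of BAPN on the members in WT aorta was examined first. No member was called in edgeR's quasi-likelihood test with Benjamini-Hochberg adjustment over 14216 genes at an adjusted p of 0.05, where 873 genes (6.14%) were called. The median log2 change of the 10 members was -0.20, against -0.04 over all genes tested, and it was negative for 8 of the 10. At an unadjusted p under 0.05, Slc2a1, Pfkl and Aldoa were lower, 3 of 11 rows against 25.0% of all genes. DESeq2 called Pfkl and Aldoa lower (10.5% of all genes called), and limma voom with quality weights called Slc2a1, Pfkl, Aldoa and Pkm lower (29.7% called). These shares count both directions, while every member counted was lower. Lower alone were 1783 of 14216 genes in edgeR (unadjusted p under 0.05), 697 in DESeq2 and 2150 in limma voom. The members lower by the same rules were 3, 2 and 4 of 11 rows. Whether the members differ from all genes was not tested.

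Pfkl encodes the liver-type subunit of phosphofructokinase, which phosphorylates fructose 6-phosphate in the committing step. It had 36.5, 43.4 and 56.6 CPM (lowest, median, highest) in WT-BAPN, against 56.7, 64.4 and 107 CPM in WT. All 7 WT-BAPN libraries lay below all 6 WT libraries, although the nearest values of the groups almost touch; 0.872% of all genes tested were lower in this way. The log2 change was -0.67 ± 0.24 (SE) with an edgeR adjusted p of 0.0847, and it was called in 5 of 34 alternatives, with adjusted p from 0.00429 to 0.193. In knock-in aorta Pfkl spread widely, with 43.5, 58.5 and 94.6 CPM in KI-BAPN against 51.6, 36.1, 72.0, 75.7 and 127 CPM in KI. There the groups overlapped, and the log2 change with BAPN was -0.18.

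Aldoa, aldolase A, cleaves fructose 1,6-bisphosphate into a pair of triose phosphates and is the main aldolase of muscle. Its levels were 418, 463 and 762 CPM in WT-BAPN, against 624.6, 746 and 2103 CPM in WT. In 5 of 7 WT-BAPN libraries it lay below every WT library, and the value of 2103 CPM belongs to WT replicate 5, the library with the high skeletal muscle markers. The log2 change was -0.84 ± 0.28 (SE, edgeR adjusted p = 0.0722). Without WT replicate 5 it was -0.43 (adjusted p = 0.211), and with muscle and fat scores as covariates -0.27 (adjusted p = 0.365). Without WT-BAPN replicate 7 it passed the threshold, at -0.94 (adjusted p = 0.0398), and the range over the alternatives was 0.008 to 0.365.

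Slc2a1 encodes GLUT1, the basal glucose transporter. It was at 29.2, 42.7 and 65.8 CPM in WT-BAPN, against 47.1, 56.9 and 97.1 CPM in WT, and 5 of 7 WT-BAPN libraries lay below every WT library. The log2 change was -0.50 ± 0.23 (SE, edgeR adjusted p = 0.175), and in knock-in aorta, where 1 of 6 KI-BAPN libraries lay below every KI library, it was -0.46 ± 0.25 (SE, adjusted p = 0.55). The groups of both genotypes overlapped.

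Hk2 encodes hexokinase 2, the insulin-responsive form of muscle and fat. It had 31.4, 50.5 and 58.5 CPM in WT-BAPN, against 43.6, 65.6 and 83.4 CPM in WT, and the groups overlapped at a log2 change of -0.44 ± 0.25 (SE, edgeR adjusted p = 0.275). Pfkm, the muscle-type phosphofructokinase, went the other way, with a log2 change of 0.19 ± 0.21 (adjusted p = 0.591). Its levels were 69.4, 108 and 135 CPM in WT-BAPN and 59.9, 92.5 and 122 CPM in WT. Hk1, the hexokinase of most tissues, was at a log2 change of 0.04 ± 0.17 (adjusted p = 0.907).

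Among the later enzymes, Pgk1, Pkm and Eno1 had a common shape in these libraries. Pgk1 (phosphoglycerate kinase 1) was at 61.2, 95.7 and 265 CPM in WT-BAPN, against 109, 135 and 160 CPM in WT. Pkm, pyruvate kinase M, was at 371, 438 and 1031 CPM in WT-BAPN, against 513, 583 and 809 CPM in WT. In both genes most WT-BAPN libraries lay below every WT library, 4 of 7 for Pgk1 and 5 of 7 for Pkm, while WT-BAPN replicate 7 lay above them all. Eno1, enolase 1, repeated this, with 4 of 7 WT-BAPN libraries below every WT library and replicate 7 above at 627 CPM, against a WT maximum of 363 CPM. Their log2 changes were -0.20 ± 0.27 for Pgk1, -0.20 ± 0.22 for Pkm and -0.05 ± 0.28 for Eno1 (SE, edgeR adjusted p = 0.679, 0.596 and 0.938). Ldha, lactate dehydrogenase A, was at 175, 269 and 579 CPM in WT-BAPN and 219, 273 and 535 CPM in WT, a log2 change of -0.10 ± 0.31 (adjusted p = 0.87). It did not share that shape: 1 of 7 WT-BAPN libraries lay below every WT library, and 1, again replicate 7, lay above.

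Markers of cell types were read in the same comparison, where 6.14% of all genes were called. Of the 8 smooth muscle markers 2 were called lower (edgeR, adjusted p under 0.05), and the summed level of the list was 14980 to 42530 CPM in WT-BAPN, against 11350 to 56460 CPM in WT, whose lowest library was WT replicate 5. Of the 10 proliferation markers, 8 were called higher, with sums of 19.7 to 440 CPM in WT-BAPN and 11.1 to 55.7 CPM in WT. All 7 tested skeletal muscle markers and 7 of the 8 airway markers were called lower, and the airway sum was 1.91 to 14.98 CPM in WT-BAPN, against 7.70 to 19600 CPM in WT. Also called lower were 3 of 8 Schwann cell markers, 2 of 6 T cell markers and 1 of 7 cardiac muscle markers, and 1 of 8 fibroblast markers was called higher. For the Schwann cell, T cell and cardiac muscle lists the highest WT sum was in replicate 5, at 1041, 280 and 1541 CPM. By median, the Schwann cell and T cell sums were higher in WT-BAPN (315.5 and 2.74 CPM) than in WT (289.6 and 1.98 CPM). The cardiac median was lower in WT-BAPN, at 107.9 CPM against 124.7 CPM. The part of these cell types in the members' values was not tested. Without WT replicate 5, the library with the high skeletal muscle and airway markers, the log2 change of Pfkl was -0.74, against -0.67 with it.

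**Figure D2:**
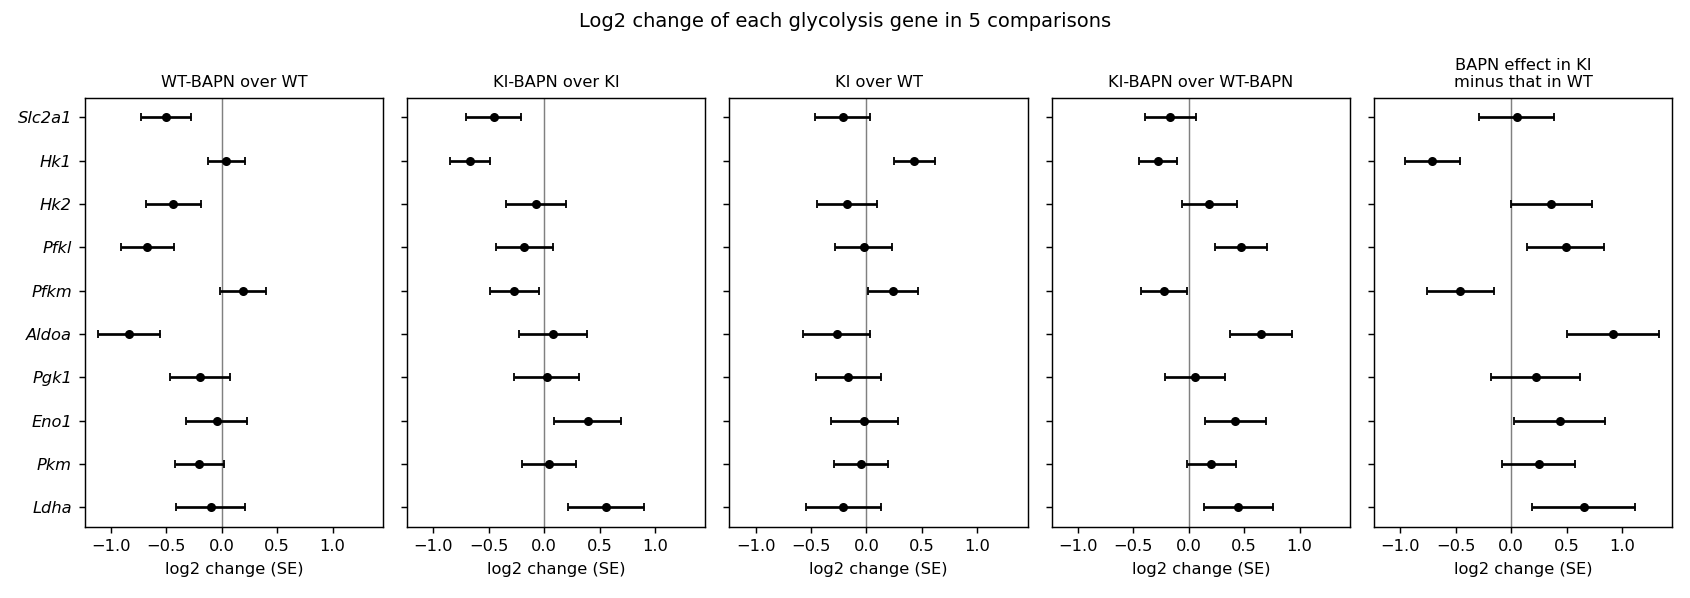
Each panel is 1 comparison, with the log2 change of each member on the horizontal axis and bars of 1 SE; the last panel is the difference between the BAPN effects in the knock-in and in WT. Aldoa (-0.84) and Pfkl (-0.67) lie farthest left with BAPN in WT and Hk1 (-0.67) with BAPN in the knock-in, and none passed the adjusted threshold.

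In knock-in aorta, KI-BAPN was set against KI. Again edgeR called 0 members (5 genes, 0.0352%, called in all). At an unadjusted p under 0.05 it had 1 of 11 rows against 10.1% of all genes, DESeq2 called 1 member (1.39% of genes) and limma voom called none (0.0%, or 0 genes). The member in each case was Hk1. The median log2 change was -0.03 over the 10 members and -0.03 over all genes tested.

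Hk1 is the hexokinase bound to the outer mitochondrial membrane in most tissues. It had 24.7, 43.0 and 54.1 CPM in KI-BAPN, against 51.3, 89.3, 70.2, 72.3 and 60.2 CPM in KI. Of 6 KI-BAPN libraries 4 lay below every KI library, and the lowest was KI-BAPN replicate 3. The log2 change was -0.67 ± 0.18 (SE, edgeR adjusted p = 0.152), it stayed between -0.76 and -0.55 in all 34 alternatives, and only DESeq2 called it (adjusted p = 0.0355), against a highest adjusted p of 0.629. Without KI-BAPN replicate 3 the log2 change was -0.55 (adjusted p = 0.349). Neuronal markers were also lower, 3 of 8 of them called among the 5 genes called in all (median log2 change of the list -5.58), with sums of at most 36.0 CPM in KI-BAPN, against 18.9 to 1927 CPM in KI. The highest Hk1 level and the highest neuronal sum were both in KI replicate 2, without which the log2 change of Hk1 was -0.56 (edgeR adjusted p = 0.365). KI replicates 1 and 5, next by neuronal sum at 143.9 and 307.7 CPM, had the lowest Hk1 levels of KI. What neuronal RNA contributed was not tested.

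Ldha and Eno1 had the highest positive estimates with BAPN in the knock-in. Ldha was at 208, 370 and 748 CPM in KI-BAPN, against 182, 166, 273, 264 and 454 CPM in KI, a log2 change of 0.56 ± 0.34 (SE, edgeR adjusted p = 0.59). Eno1 was at 248, 361 and 646 CPM in KI-BAPN, against 188, 222, 311, 351 and 513 CPM in KI, with a log2 change of 0.39 ± 0.30 (adjusted p = 0.672). The groups overlapped in both genes, and the highest library of each group was the one with the highest adipocyte marker sum, KI-BAPN replicate 3 and KI replicate 5. In WT-BAPN both genes were highest in replicate 7, which had the lowest adipocyte sum of its group, 114.6 CPM. In WT, replicate 5 had the highest Ldha and adipocyte sum (1837 CPM), and replicate 4 the highest Eno1. The 10 macrophage markers summed to 171 to 1505 CPM in KI-BAPN, against 47.5 to 176 CPM in KI, the highest again in KI-BAPN replicate 3; the part of these cells was not tested. Hk2, Aldoa, Pgk1, Pkm and Pfkm were at log2 changes of -0.07, 0.08, 0.02, 0.05 and -0.27, none with an adjusted p under 0.7.

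The knock-in was set against WT on plain water and on BAPN. On water no member was called by edgeR (27 genes, 0.19%), DESeq2 (3.38% of genes) or limma voom (1.9%), and Hk1 alone had an unadjusted p under 0.05, 1 of 11 rows against 16.9% of all genes. Its level was 51.3 to 89.3 CPM in KI, against 38.8, 47.1 and 68.8 CPM in WT, and 3 of 5 KI libraries lay above every WT library. The log2 change was 0.43 ± 0.18 (SE, edgeR adjusted p = 0.222). Without KI replicate 2 it was 0.32 (unadjusted p = 0.0996, edgeR adjusted p = 0.495), so that no member had an unadjusted p under 0.05. Leaving out WT replicate 2 or WT replicate 3 also left no member under that threshold. In this comparison 3 of 8 neuronal markers were called higher (median log2 change of the list 3.93), with sums of 18.9 to 1927 CPM in KI, against 11.04 to 116 CPM in WT. KI replicates 3 and 4 had neuronal sums of 18.9 and 22.8 CPM, with Hk1 at 70.2 and 72.3 CPM. In KI replicates 1 and 5 the sums were 143.9 and 307.7 CPM, with Hk1 at 51.3 and 60.2 CPM. The part of neuronal RNA was not tested. The median over the 10 members was -0.11, against -0.01 over all genes tested.

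On BAPN, edgeR called 0 members (1 gene, 0.00703%), as did limma voom (0.0211% of genes). DESeq2 (0.197% of genes called, with no adjusted p for 12681 of the 14216) gave an adjusted p to 5 of the 11 member rows and called none of these, and the other 6 rows, Pfkl among them, had no adjusted p. By edgeR, Aldoa alone had an unadjusted p under 0.05, where 13.9% of all genes did. Aldoa was at 625.4, 720 and 1226 CPM in KI-BAPN, against 418, 463 and 762 CPM in WT-BAPN, and 2 of 6 KI-BAPN libraries, replicates 2 and 3, lay above every WT-BAPN library. The log2 change was 0.65 ± 0.28 (SE, edgeR adjusted p = 0.307), and adjusted p ran from 0.0556 to 0.995 over the alternatives. Pfkl followed at 0.47 ± 0.24 (SE, adjusted p = 0.375), Ldha at 0.45 ± 0.31 and Eno1 at 0.42 ± 0.28. The median of the 10 members was 0.19, against -0.02 over all genes tested, and adipocyte markers summed to 211 to 8572 CPM in KI-BAPN, against 115 to 2115 CPM in WT-BAPN, a difference whose part was not tested.

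Whether BAPN acted differently on the members in the 2 genotypes was tested as an interaction. No gene was called by edgeR (0.0%), against 14.8% of genes at an unadjusted p under 0.05, and DESeq2 and limma voom called 0.0985% and 0.0281% of genes, with no member among them; the second Aldoa row had no adjusted p in DESeq2. At the unadjusted threshold the members were Aldoa and Hk1, with opposite signs. The difference between the BAPN effects, knock-in minus WT, was 0.92 ± 0.42 for Aldoa (SE, edgeR adjusted p = 0.319) and -0.71 ± 0.25 for Hk1 (adjusted p = 0.281). These comparisons share groups of libraries, so their values are not independent of each other.

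Isozyme ratios within a library, which do not depend on its scaling, were compared by exact two-sided permutation tests adjusted over 16 comparisons. The log2 ratio of Pfkm over Pfkl was 0.67, 1.09 and 1.72 (lowest, median, highest) in WT-BAPN, against -0.14, 0.04 and 1.10 in WT. Of 6 WT libraries 5 lay below every WT-BAPN library, and the exception, at 1.10, was WT replicate 5. The group means were 1.14 ± 0.41 (SD, n = 7) in WT-BAPN and 0.27 ± 0.47 (SD, n = 6) in WT, a difference of 0.87 in log2 (exact permutation p = 0.00932, adjusted 0.149). Without WT replicate 5 the difference was 1.03 (exact permutation, adjusted p = 0.0202), so that library decides the call. In the knock-in the difference was -0.23 (exact permutation, adjusted p = 0.794), with means of 0.43 ± 0.82 (SD, n = 6) in KI-BAPN and 0.66 ± 0.76 (SD, n = 5) in KI.

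The hexokinase ratio, Hk2 over Hk1, averaged -0.13 ± 0.36 (SD, n = 7) in WT-BAPN and 0.35 ± 0.36 (SD, n = 6) in WT, a log2 difference of -0.48 (exact permutation p = 0.039, adjusted 0.312). Ldha over Ldhb, the muscle and heart forms of lactate dehydrogenase, averaged 1.62 ± 0.48 (SD, n = 7) in WT-BAPN and 1.26 ± 0.45 (SD, n = 6) in WT (exact permutation, adjusted p = 0.444). In CPM, not divided by gene length, Ldha was above Ldhb in all 24 libraries. Pfkp, the platelet form, exceeded Pfkm by the same measure in 23 of 24 libraries, the exception being WT replicate 5 at a log2 ratio of -0.59. Gene length can shift such an order of 2 genes. The ratio of Pfkp over Pfkm averaged 1.35 ± 0.18 (SD, n = 7) in WT-BAPN and 1.49 ± 1.06 (SD, n = 6) in WT, a log2 difference of -0.14 (exact permutation p = 0.831, adjusted 0.831). Without WT replicate 5 the ratio was lower in WT-BAPN than in WT, with a log2 difference of -0.55 (exact permutation, adjusted p = 0.0202).

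**Figure D3:**
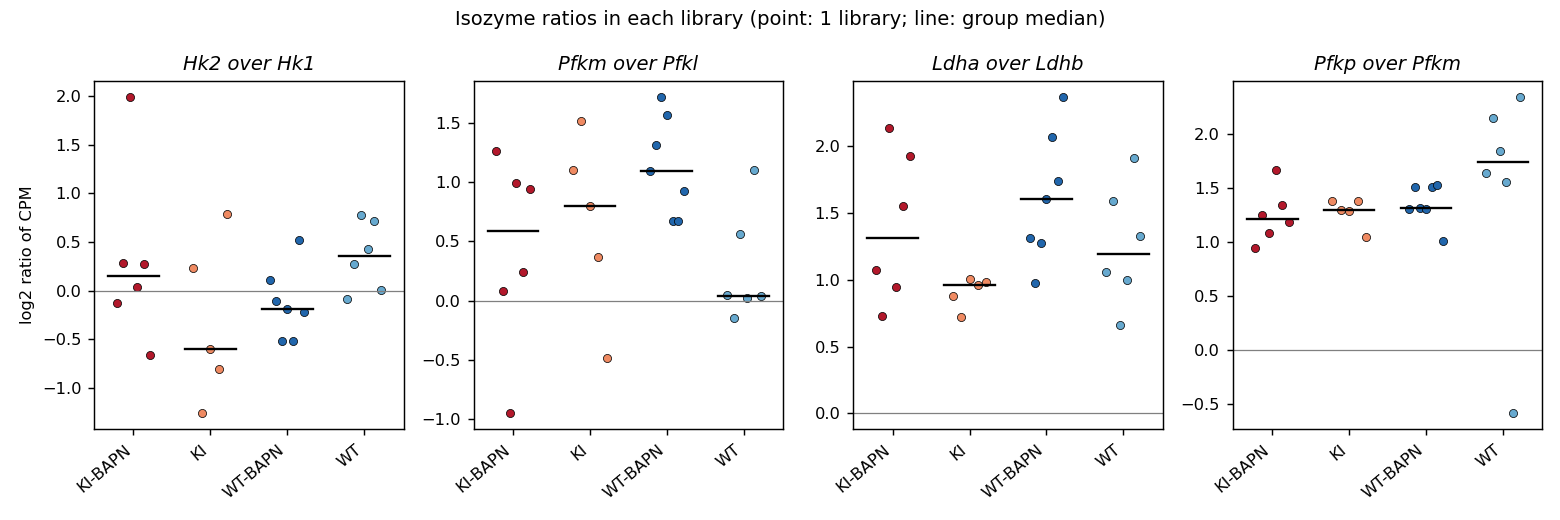
Log2 ratios of the CPM of isozyme pairs, 1 point a library, with the 4 groups side by side and lines at the medians. For Pfkm over Pfkl the WT-BAPN libraries lie between 0.67 and 1.72, and all WT libraries but the one at 1.10 lie below them.

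Other genes of the pathway, in lists of 92 genes of which 86 were tested, gave 5 calls with BAPN in WT, all lower, and none in the other 3 comparisons or the interaction (edgeR, adjusted p under 0.05). The 6.14% of all genes called counts both directions. Called lower were 384 of all 14216 genes, against these 5 of 86, a difference that was not tested. None of the 5 belonged to the remaining glycolytic enzymes (0 of 13 tested), glucose and lactate transport (0 of 9) or the kinases that set fructose 2,6-bisphosphate and allied regulators (0 of 6). Among 22 tested genes of HIF signalling and its targets 3 fell, where 384 of all 14216 genes were called lower: P4ha1, a prolyl hydroxylase subunit of collagen synthesis, by 1.26 ± 0.33 in log2 (SE, adjusted p = 0.0305), Ndrg1, a hypoxia-inducible gene, by 0.98 ± 0.26 (adjusted p = 0.0316), and Hif1an, which hydroxylates HIF-1α, by 0.58 ± 0.17 (adjusted p = 0.0484). The list's median log2 change was -0.31, against -0.04 over all genes tested. Hif1an restrains HIF activity, unlike the other two, which lie downstream of it.

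P4ha1 was at 58.6, 106 and 204 CPM in WT-BAPN, against 109, 292 and 357 CPM in WT, where replicate 5 was the lowest. Ndrg1 was at 29.7, 34.4 and 52.2 CPM in WT-BAPN, against 37.9, 77.0 and 102 CPM in WT, and the groups overlapped in both genes. Hif1an was at 21.1, 24.4 and 33.4 CPM in WT-BAPN, against 34.1, 37.9 and 50.4 CPM in WT. Its groups did not overlap, and 0.872% of all genes tested were lower in this way. Outside that list, Pdp2, a phosphatase that activates pyruvate dehydrogenase, fell by 1.13 ± 0.26 in log2 (SE, edgeR adjusted p = 0.019), the only 1 of 13 genes of pyruvate use. Gbe1, the glycogen branching enzyme, fell by 0.90 ± 0.27 (adjusted p = 0.0472), the only 1 of 18 genes of side branches; it was at 12.6, 17.5 and 24.7 CPM in WT-BAPN, against 24.4, 30.8 and 44.8 CPM in WT. The nearest glycolytic enzyme was Eno3, the muscle enolase, at a log2 change of -1.98 ± 0.63 (adjusted p = 0.06), with 439 CPM in WT replicate 5, against at most 28.6 CPM in the other WT libraries.

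Between libraries, the members had unlike profiles. Distance was the mean absolute difference of standardized log2 CPM over the 24 libraries, in SD units, described without a test; all points share library and depth. Eno1 lay close to Ldha (0.42), Pgk1 (0.43) and Pkm (0.47), and Aldoa and Pfkl lay nearest to Eno1 (0.54) and Pkm (0.51). Hk1 lay nearest to Slc2a1 (0.63), and Pfkm to Hk1 (0.67), while Pfkm and Ldha were 1.27 apart. Of the members, Pkm was closest to their mean profile (0.35) and Pfkm farthest from it (1.05), against a median of 1.11 over all genes tested. The members make up this profile, which lowers their own distances, so that median is not a like comparison. The 5 other genes nearest to the mean profile were Prmt7 (0.36), Mrpl38 (0.38), Gde1 (0.39), Eftud2 (0.39) and Clptm1 (0.40). The nearest gene of single members was Babam1 for Pkm (0.25), Mrpl17 for Eno1 (0.28), Pepd for Ldha (0.29), Mybbp1a for Slc2a1 (0.31) and Prdx6 for Aldoa (0.33).

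KI-BAPN replicate 3 shows the split most plainly. It had the lowest level of all 24 libraries for Slc2a1 (17.5 CPM), Hk1 (24.7 CPM) and Pfkm (40.6 CPM), and the highest for Ldha (748 CPM) and Eno1 (646 CPM). Its smooth muscle markers were also lowest of all libraries, at 10430 CPM, and its adipocyte and macrophage sums were among the highest, at 8572 and 1505 CPM; their part was not tested. WT-BAPN replicate 7, with the highest proliferation marker sum, had the highest Pgk1 and Pkm of all libraries, and KI replicate 5 the highest Pfkl and Hk2.

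**Figure D4:**
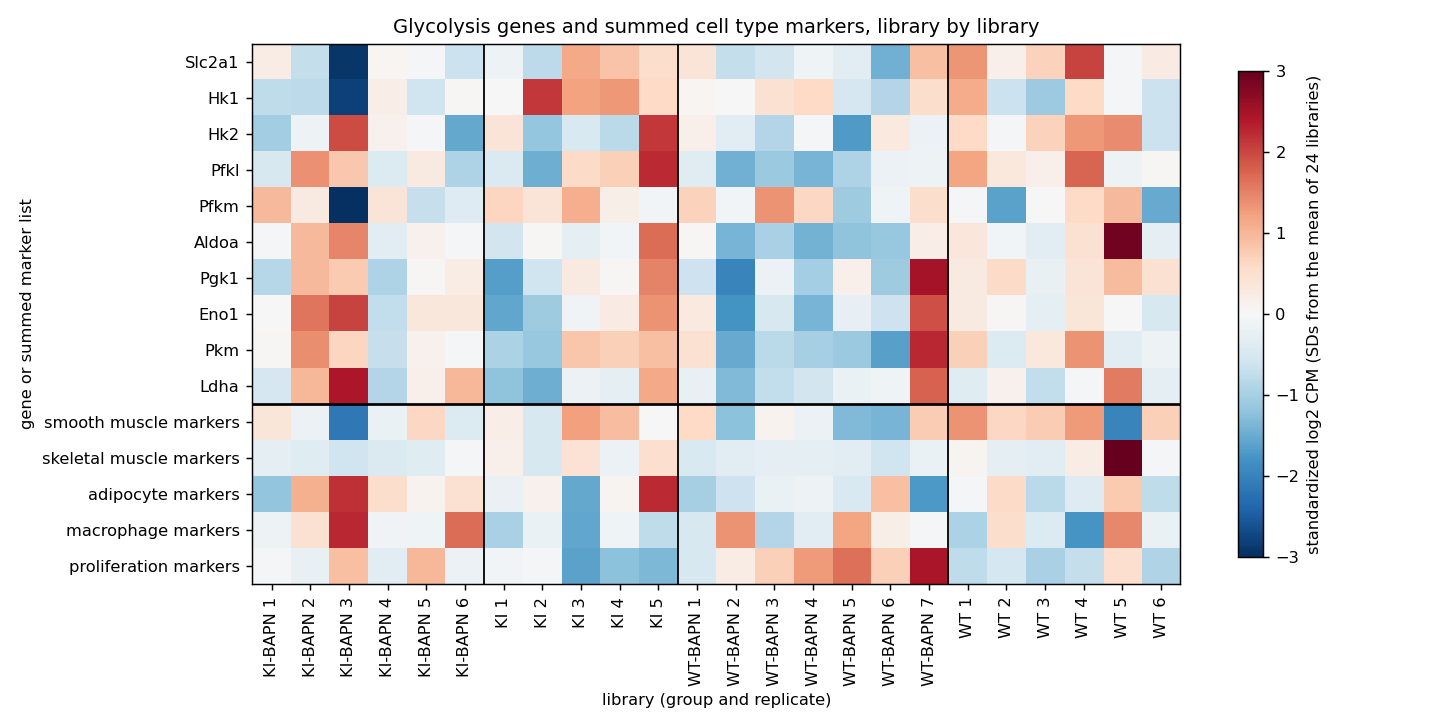
Rows are the 10 members and, under the line, the summed levels of 5 marker lists; columns are libraries by group and replicate; colour is the standardized log2 CPM, in SDs from the mean of 24 libraries. Pgk1, Eno1 and Ldha are all high in WT-BAPN replicate 7 and KI replicate 5 and low in WT-BAPN replicate 2 and KI replicate 1. They part in WT replicate 5, where Ldha is at 1.56 and Eno1 at 0.016. Slc2a1, Hk1 and Pfkm are lowest in KI-BAPN replicate 3.

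The members' rows lie, by the deposited coordinates, whose build is not stated and differs from the GRCm38 annotation, on chromosomes 4 (Slc2a1 at 118965908 to 118995180 and Eno1 at 150321178 to 150333336), 6 (Hk2), 7 (Aldoa at 126394406 to 126399923 and Ldha at 46490899 to 46505051), 9 (Pkm), 10 (Hk1 at 62104634 to 62215687 and Pfkl at 77822781 to 77845917), 15 (Pfkm at 97990470 to 98030332) and X (Pgk1). All values are whole-gene counts, so that isoforms such as the M1 and M2 forms of Pkm, and lactate or glucose flux, were not measured.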

How the data were processed

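RNA-seq libraries of mouse aorta (6 KI-BAPN, 5 KI, 7 WT-BAPN, 6 WT) were made from oligo(dT)-selected RNA, per the labels' protocols. The authors deposited raw read counts per gene; Trim Galore, FastQC, HISAT2, DESeq2 and the builds GRCm38 and mm10 are named in the submitters' processing notes, without versions, and the sources used here do not give the counting program or its use of strand. Here, genes passing filterByExpr by group (14216 of 21959, all 11 member rows included) were scaled by TMM and fitted over all 4 groups with edgeR 4.0.16 (R 4.3.3; robust legacy quasi-likelihood, Benjamini-Hochberg adjustment, threshold 0.05). The test was checked on simulated counts. CPM values are TMM-scaled, and log2 CPM for likeness has a prior count of 2. DESeq2 1.42.0 and limma 3.58.1 (voom with quality weights) were alternatives, beside other filters, scalings, covariates and left-out libraries. Isozyme ratios were compared by exact permutation tests. Totals of 13127645 to 26490651 counts leave the spread between libraries as the main error for every member but the second Aldoa row. No libraries were duplicates (smallest chi-square per gene 30.8). The labels do not say that each library is 1 animal, and p-values measure the spread between these samples. Named are all members, up to 4 genes of each other pathway list with the smallest adjusted p and every called one, markers beside a member's value, and the genes nearest in profile. The members and lists were chosen with earlier results of these data known. Promoters are those of RefSeq on GRCm38.p6; the deposited coordinates match the GENCODE M21 start and end for 514 genes, none of them members. Python 3.11.15, pandas 2.3.3, numpy 2.4.6 and matplotlib 3.10.9 were used for the other steps.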

Additional observations from a re-analysis of the deposited data

Results flagged for a closer look

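Of 60 groups of values examined (11 member rows and 4 isozyme ratios, in 4 groups), 11 had a library far from the rest by Dixon's test at the 95% level, which chance gives in about 1 of 20 groups. Of these, 4 were WT-BAPN replicate 7, with Pgk1 at 265 CPM, Eno1 at 627 CPM, Pkm at 1031 CPM and Ldha at 579 CPM, each far above the other WT-BAPN libraries. Its proliferation marker sum, 440 CPM, was also the highest of its group; the part of this was not tested.

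WT replicate 5 stood apart for Aldoa (2103 CPM), Ldha (535 CPM) and the log2 ratio of Pfkp over Pfkm (-0.59), and its skeletal muscle marker sum was 6537 CPM. KI replicate 5 stood apart for Aldoa (1325 CPM) and the log2 ratio of Pfkp over Pfkm (1.04), with an adipocyte marker sum of 9138 CPM. KI-BAPN replicate 3 stood apart for Hk2 (98.5 CPM) and the log2 ratio of Hk2 over Hk1 (1.99), with an adipocyte marker sum of 8572 CPM. What these tissues contributed was not tested.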

How the results depend on the processing

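No member was called in any comparison by the main fit, TMM-scaled edgeR over all libraries. With BAPN in WT, DESeq2 called 2 members, limma voom 4 and a fit on only the compared groups 1. The fit without 4 libraries rich in other tissue (WT replicate 5 and KI replicates 1, 2 and 5) called 1. The fit without libraries over 300 CPM of Adipoq or 100 CPM of Acta1 also called 1 (WT replicate 5, KI replicate 5, KI-BAPN replicates 2 and 3, chosen after seeing the data). The first of these sets of 4 holds the libraries with the highest neuronal marker sums, 116 to 1927 CPM. The fit without it keeps KI-BAPN replicate 3, with an adipocyte marker sum of 8572 CPM. Leaving out single libraries gave 0 to 1. With BAPN in the knock-in DESeq2 called 1. Genes called moved more. With BAPN in WT (873), DESeq2 called 1493, limma voom 4227, muscle and fat scores as covariates 1488, the fits without the first and the second set of 4 libraries 1524 and 1457, and single libraries left out 327 (without WT replicate 1) to 1609 (without WT-BAPN replicate 7). With BAPN in the knock-in (5), they were 198, 0, 114, 3 and 0, with 108 for the newer quasi-likelihood method, 0 with no filter on low counts, 0 for only the compared groups and 0 to 143 with single libraries left out (lowest without WT replicate 1, highest without KI replicate 4). For KI against WT on water (27) they were 480, 270, 56, 1 and 325, with 212 for the newer method, 7 with no filter, 8 for only the compared groups and 1 (without KI replicate 2) to 293 (without WT replicate 5). For KI against WT on BAPN (1) DESeq2 called 28 and limma voom 3, and for the interaction (0) 14 and 4. The cause was not tested.

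Replicate numbers were not treated as pairs. Over 33 same-number pairs the correlations were -0.521 to 0.571 (median 0.07, 16 over 0.1), against a median of -0.004 over 182 pairs with other numbers. The replicate block called 1024, 0, 29, 1 and 0 genes in the 5 comparisons in the order above and no member.

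Directions near 0 turned. With BAPN in WT, Eno1 was at 0.025 with covariates and -0.31 to 0.058 with single libraries left out, Hk1 at -0.027 to 0.14, and Ldha at 0.28 with covariates, 0.13 without the first and 0.13 without the second set of 4 libraries, and -0.36 to 0.13 with single libraries left out. With BAPN in the knock-in, without the first set Hk2 was at 0.32, Pgk1 at -0.013 and Pkm at -0.18; Pkm was at -0.039 without the second set and -0.033 with limma voom, where Pgk1 was at 0.0. Single libraries left out gave Aldoa -0.059 to 0.35, Hk2 -0.32 to 0.25, Pfkl -0.35 to 0.12, Pgk1 -0.13 to 0.25 and Pkm -0.057 to 0.12. For KI against WT on water, without the first set Eno1 was at 0.046, Ldha at 0.022, Pkm at 0.14 and Slc2a1 at 0.011, and Pkm was at 0.01 with limma voom. Single libraries left out gave Aldoa -0.54 to 0.13, Eno1 -0.26 to 0.12, Ldha -0.48 to 0.019, Pfkl -0.32 to 0.15 and Pkm -0.12 to 0.054. For KI against WT on BAPN, Hk2 was at -0.011 with limma voom, -0.13 with covariates, -0.10 without the second set and -0.063 to 0.30 with single libraries left out; Pgk1 was at -0.16 without the second set and -0.054 to 0.40; Slc2a1 was at 0.068, 0.12 and 0.047 with limma voom, with covariates and without the second set. The interaction for Slc2a1 was -0.18 without the first set and -0.11 to 0.20 with single libraries left out. Of the isozyme ratios, Pfkm over Pfkl with BAPN in WT was 1.03 without the first set (adjusted p under 0.05) and 0.77 to 1.03 with single libraries left out, and -0.52 to 0.044 in the knock-in. Pfkp over Pfkm was -0.55 without the first set and -0.55 to 0.035 with single libraries left out for BAPN in WT, -0.12 to 0.029 for BAPN in the knock-in, and -0.63 to -0.043 for KI against WT on water. In these ratios WT replicate 5 decides the calls.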

Other observations

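Genes that branch off glycolysis (pentose phosphate, glycogen and serine genes, 18 tested) had a median log2 difference of 0.46 in KI-BAPN over WT-BAPN, against -0.02 over all genes tested, and none was called (edgeR, adjusted p under 0.05). The smallest adjusted p, 0.243, was shared by Tkt, the transketolase gene, at 1.08 ± 0.32, Gbe1, the glycogen branching enzyme, at 0.83 ± 0.27, and G6pdx, glucose-6-phosphate dehydrogenase, at 0.62 ± 0.19 (SE, edgeR). In the same comparison the median log2 difference was 2.03 over 8 adipocyte markers and 0.86 over 10 macrophage markers, none called; their part was not tested.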
